A study of Homo sapiens with 30 samples.

Results

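H3K27ac is the acetylation of lysine 27 on histone H3 that marks active promoters and enhancers. It was examined here in peaks near gene ends that overlap no peak of H3K4me3, the methylation mark of active gene starts. The gene end itself, up to 1000 bp away, could still carry H3K4me3. A peak belonged to the set when it lay on chromosomes 1 to 22 or X, was shorter than 8000 bp, came within 1000 bp of either end of a RefSeq gene and overlapped no H3K4me3 peak by a single base. The set held 3603 of 63580 H3K27ac peaks, 5.67% of them, and 21.6% of the 16715 gene-end peaks of that length. The peaks came within reach of 3137 genes. The farthest distance inside the limit was 1000 bp and the first outside it was 1001 bp. The longest peak was 7882 bp, and 28 peaks met every condition but length, the shortest of them 8082 bp. The smallest gap to an H3K4me3 peak was 6 bp. A peak is called below by the gene whose end is nearest, which does not assign it to that gene.

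The cells were of the line OCI-Ly1, derived from a human lymphoma (diffuse large B-cell type), grown in culture and exposed to JIB-04, an inhibitor of the Jumonji family of histone demethylases. The 3 groups were cells given 150 nM JIB-04, cells given 500 nM JIB-04 and cells given the vehicle DMSO, all of the 1 line and with no other genetic change given. Each group had 2 H3K27ac libraries and 2 H3K4me3 libraries from chromatin immunoprecipitation followed by sequencing. No source says whether these libraries came from separate cultures, so p-values measure only the spread between these samples, which may be technical.

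Acetylated histones at a gene start usually come with H3K4me3, which methyltransferase complexes lay down where CpG-rich DNA is free of DNA methylation. H3K27ac without H3K4me3 is the usual signature of an enhancer, a regulatory element that can act from inside or beyond a gene. The end of a gene opposite its start, called the far end here, is where transcripts are cleaved and polyadenylated. A peak there can therefore lie in the last part of the gene, just beyond it, or in a neighbour. Jumonji demethylases remove methyl groups from histone lysines, those of H3K4 and H3K9 among them, and JIB-04 blocks several of these enzymes.

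The starts inside these peaks were poor in CpG. The following 300-base windows run 5′ to 3′ from 250 bases before a gene's start to 50 after it, from the RefSeq promoter table of GRCh38.p14, and capitals mark every CG pair. The first 6 belong to the peaks named for a called change or for a high level whose start window could be printed. Marking CG pairs was chosen after the values were seen. CCDC154 (chr16:1444507-1444806, minus strand) and KLHDC7B (chr22:50545649-50545948, plus strand) stand at peaks that rose with 500 nM JIB-04. LOC107984386 (chr11:111445614-111445913, plus strand), LOC105376314 (chr9:134936274-134936573, plus strand) and CHI3L2 (chr1:111227409-111227708, plus strand) stand at peaks that fell in at least 1 comparison. LOC105375504 (chr7:130367078-130367377, minus strand) stands at a peak of high level. The last 2, FLCN (chr17:17237119-17237418, minus strand) and LAPTM5 (chr1:30757725-30758024, minus strand), are starts that do carry H3K4me3, of genes whose far end holds a peak that rose. They were chosen after their values were seen.
CCDC154: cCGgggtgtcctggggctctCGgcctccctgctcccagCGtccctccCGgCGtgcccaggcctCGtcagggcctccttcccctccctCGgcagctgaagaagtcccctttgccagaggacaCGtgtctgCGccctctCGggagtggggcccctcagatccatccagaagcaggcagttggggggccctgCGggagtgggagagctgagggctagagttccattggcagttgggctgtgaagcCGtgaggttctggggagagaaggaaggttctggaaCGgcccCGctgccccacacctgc
KLHDC7B: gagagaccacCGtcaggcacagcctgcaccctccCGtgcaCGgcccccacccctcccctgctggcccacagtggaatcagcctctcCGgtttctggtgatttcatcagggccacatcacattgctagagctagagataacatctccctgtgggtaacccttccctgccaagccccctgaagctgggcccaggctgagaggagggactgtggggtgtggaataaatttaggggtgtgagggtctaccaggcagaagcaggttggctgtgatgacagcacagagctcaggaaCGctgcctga
LOC107984386: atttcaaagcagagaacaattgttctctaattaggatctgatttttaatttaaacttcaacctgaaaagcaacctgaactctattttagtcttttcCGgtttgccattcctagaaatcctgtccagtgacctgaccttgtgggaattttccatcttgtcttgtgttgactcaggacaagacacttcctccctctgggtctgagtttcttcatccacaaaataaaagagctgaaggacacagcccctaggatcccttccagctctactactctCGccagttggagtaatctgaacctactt
LOC105376314: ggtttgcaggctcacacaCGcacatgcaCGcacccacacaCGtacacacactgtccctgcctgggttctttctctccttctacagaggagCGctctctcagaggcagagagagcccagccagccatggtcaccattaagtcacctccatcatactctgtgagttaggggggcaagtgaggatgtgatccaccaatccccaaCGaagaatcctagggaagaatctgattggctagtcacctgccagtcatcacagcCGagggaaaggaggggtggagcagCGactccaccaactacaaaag
CHI3L2: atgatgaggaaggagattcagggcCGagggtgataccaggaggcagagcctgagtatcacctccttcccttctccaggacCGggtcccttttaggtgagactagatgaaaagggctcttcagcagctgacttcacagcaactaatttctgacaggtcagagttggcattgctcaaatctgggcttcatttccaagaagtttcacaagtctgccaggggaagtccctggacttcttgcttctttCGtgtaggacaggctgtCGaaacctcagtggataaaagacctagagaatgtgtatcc
LOC105375504: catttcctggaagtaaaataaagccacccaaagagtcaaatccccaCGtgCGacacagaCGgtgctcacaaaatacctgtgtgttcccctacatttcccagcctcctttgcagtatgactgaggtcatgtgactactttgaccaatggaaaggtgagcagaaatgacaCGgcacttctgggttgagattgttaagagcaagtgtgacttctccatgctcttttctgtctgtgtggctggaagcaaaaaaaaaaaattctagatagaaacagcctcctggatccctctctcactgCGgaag
FLCN: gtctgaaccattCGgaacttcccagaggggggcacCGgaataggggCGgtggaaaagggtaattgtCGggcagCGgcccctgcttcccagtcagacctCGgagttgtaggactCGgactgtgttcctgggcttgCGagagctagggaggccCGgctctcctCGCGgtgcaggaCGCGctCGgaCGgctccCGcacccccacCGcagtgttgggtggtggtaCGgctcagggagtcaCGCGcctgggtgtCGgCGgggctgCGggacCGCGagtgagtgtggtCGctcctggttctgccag
LAPTM5: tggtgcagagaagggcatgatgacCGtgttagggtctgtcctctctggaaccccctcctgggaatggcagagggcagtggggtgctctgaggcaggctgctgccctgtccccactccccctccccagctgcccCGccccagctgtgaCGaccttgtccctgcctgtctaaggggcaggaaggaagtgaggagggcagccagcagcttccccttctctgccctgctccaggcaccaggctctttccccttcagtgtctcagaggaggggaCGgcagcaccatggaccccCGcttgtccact

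FLCN's start holds 26 CG pairs, with an observed to expected ratio of 0.791, where 1 would be the number given by its C and G content. The KLHDC7B window holds 5 pairs and a ratio of 0.187, and CHI3L2 holds 4 pairs and a ratio of 0.217. LOC107984386 holds 2 pairs. CCDC154, at 67.7% G and C, is as GC-rich as FLCN at 67.0% but has 14 pairs and a ratio of 0.408. The start of LAPTM5 shows that H3K4me3 can stand on a CpG-poor start in these cells, with 5 pairs and a ratio of 0.160.

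In all, 248 start windows of 232 genes had their start inside one of 226 peaks. Their median observed to expected CpG ratio was 0.207 and their median GC content 48.0%, and 8 windows (3.23%) reached a ratio of 0.6. The 10547 windows whose start lay in a gene-end H3K27ac peak with H3K4me3 had a median ratio of 0.854, and 87.3% of them reached 0.6. Windows with neither mark had a median ratio of 0.271, and 20.3% of them reached 0.6, so the share of CpG-rich starts inside these peaks was also lower than among unmarked starts. The 4150 windows under H3K4me3 alone had a median of 0.825. These are descriptions over gene starts, which are not replicates.

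**Figure D1:**
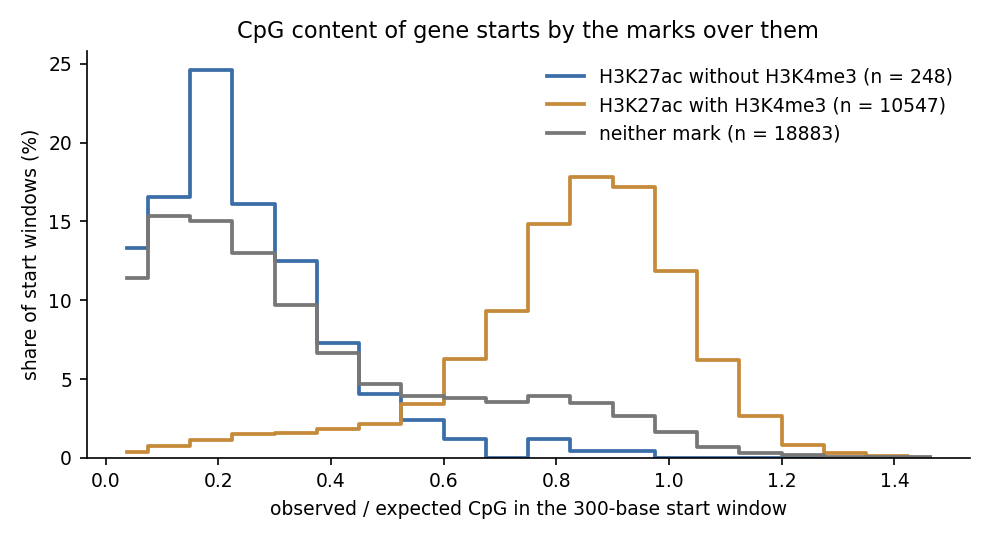
Share of 300-base start windows (y axis, percent) by their observed to expected CpG ratio (x axis, bins of equal width, ratios beyond the axis in the last bin), for starts inside an H3K27ac peak without H3K4me3, inside one with H3K4me3, and with neither mark. The starts without H3K4me3 have a median of 0.207 and those with it a median of 0.854.

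Some short sequence motifs differed in share from unmarked starts, from starts with both marks, or from both groups. The letters were searched on both strands of each window, and each share is set beside that over all 34961 promoter windows. The GC box GGGCGG, which contains a CG pair, was in 8.06% of the windows inside these peaks, in 45.0% of all windows, in 23.9% of those with neither mark and in 70.6% of those under both marks. The ETS core CCGGAAG, also with a CG pair, was in 2.82%, against 10.3% of all and 3.16% of those with neither mark. The AP-1 letters TGACTCA were in 11.3%, against 4.92% of all windows, 6.58% of those with neither mark and 2.61% of those under both marks. The octamer core ATTTGCA, bound by OCT factors in B cells, was in 8.87%, against 4.17% of all and 5.32% of those with neither mark. The TATA box TATAAA was in 12.5%, against 11.5% of all, 16.9% of those with neither mark and 4.59% of those under both marks. The CCAAT box CCAAT was in 35.5% against 34.6% of all, and the PU.1 core GAGGAAG in 14.5% against 13.6%. These 3 stood near the share of all windows, which for the TATA box pools groups that differ. The E-box CACGTG was in 3.63% against 7.27%. A match of letters is not a bound site.

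Where the strand was known, most of the peaks did not stand near gene starts. It was known for 1939 peaks and not for 1664. Of the 1939, 737 (38.01%) came within 1000 bp of a start and 1202 (62.0%) were near a far end only. Ends of genes without a known strand were not counted here, so such a peak can also lie near an end that may be a start. In the 10670 gene-end peaks with H3K4me3 and a known strand, 95.5% were near a start and 4.48% near a far end only. The strand was not known for another 2442 of them. The nearest end was that of a long noncoding RNA (lncRNA) in 1399 peaks (38.8%), of a protein-coding gene in 1303 (36.2%) and of a pseudogene in 613 (17.01%). With H3K4me3 those shares were 13.2%, 81.7% and 1.30%. Another 110 peaks had a microRNA as nearest gene and 59 a small nucleolar RNA.

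**Figure D2:**
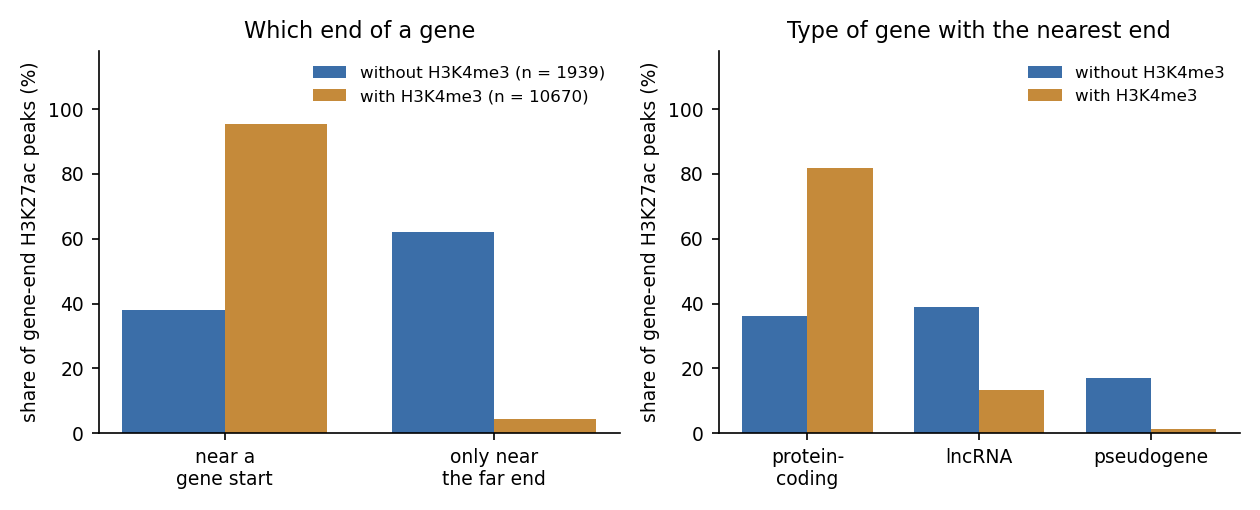
Share of gene-end H3K27ac peaks (y axis, percent) by the gene end in reach (left, peaks with a known strand) and by the type of the nearest gene (right), without and with H3K4me3. Among the peaks with a known strand, those near a far end only make up 62.0% without H3K4me3 and 4.48% with it.

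Gene bodies overlapped 2803 of the peaks (77.8%), beside 90.3% of the gene-end peaks with H3K4me3. Of the peaks of the set, 996 (27.6%) held the gene end itself. The others lay at a median of 448 bp from it. The nearest H3K4me3 peak was at a median of 10371 bp, and it was within 1000 bp for 521 peaks (14.5%) and within 5000 bp for 1279 (35.5%). The nearest gene carried H3K4me3 at an end for 69.5% of the peaks near a far end only, and for 31.5% of those near a start only. Several peaks could share a gene: the lncRNA LOC105372621 had 6, and BLK-AS1, antisense to the B-cell kinase gene BLK, and LOC124905131 had 5 each, as did PTPRC-AS1, RDUR and TPM3P2. None of the peaks of the first 3 was called in any comparison, and no comparison called more than 1.27% of all tested peaks.

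The set was of average strength for the H3K27ac table. Levels are given as CPM, the count per 1000000 counts in tested peaks, and between peaks as CPM per kb of peak. The median was 8.39 CPM per kb in the set, 8.80 over all peaks, 15.2 in gene-end peaks with H3K4me3 and 7.48 in peaks away from gene ends without it. Their median length was 463 bp, and the median count of a peak was 17 to 21 reads in a library. Total counts in all peaks ran from 4360660 to 5410292 per library. Of these the DMSO libraries had 4.25% ± 0.05 in the set, those of 150 nM 4.22% ± 0.13 and those of 500 nM 4.23% ± 0.04 (SD, n = 2), and the groups overlapped.

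Some libraries stood apart before any comparison. On 5 unplaced contigs picked in earlier results of these data, summed H3K27ac was 72.8 CPM in DMSO replicate 2 and 46.4 CPM in 150 nM replicate 2, against 327 to 447 CPM in the other 4 libraries. Over the gene-end peaks without H3K4me3, a chi-square per degree of freedom, where 1 is counting noise, was 1.30 between the DMSO replicates, 1.31 between the 500 nM replicates and 1.96 between the 150 nM replicates. DMSO replicate 1 and 150 nM replicate 1 differed by 1.26, less than the 150 nM replicates did. DMSO replicate 2 and 150 nM replicate 2, both low on the contigs, differed by 1.52, more than the DMSO replicates did. With that division of the libraries as a term in the fit, 83 peaks were called at 500 nM against DMSO, 46 higher and 37 lower, in place of the 43 given below.

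The highest levels were concentrated on chromosome 8, which held 5 of the 10 peaks highest in CPM per kb and 204 of the 3603 peaks. CPM per kb is not corrected for DNA copy number, which was not tested, as the input libraries were not analysed here. At the small nuclear RNA pseudogene RNU6-1255P, inside ASAP1, the level was 72.5 CPM per kb. A peak inside MYC, the growth-promoting transcription factor, near an end of the gene, stood at 47.0 CPM per kb and 525 bp from H3K4me3. A peak near an end of ASAP1 had 43.5 CPM per kb. On chromosome 12, the far end of ETV6, a transcriptional repressor of blood cells, had 40.1 CPM per kb and lay 38328 bp from H3K4me3. Of these 10 peaks, 1 was called: LOC107984386, described among the falls. The 3 longest lay at SLC35D4, at IRF2, an interferon regulatory factor, and at the far end of IL7R, the interleukin-7 receptor. Their 500 nM to DMSO log2 fold changes were 0.08, 0.07 and 0.03, with adjusted p of 0.766, 0.812 and 0.944.

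At 500 nM JIB-04, 43 of the 3053 peaks that passed a filter on low counts were called against DMSO, at an adjusted p under 0.05. Of them 35 rose and 8 fell. The fit with the replicate block gave 51 rises and 29 falls, and the fit to only the 4 libraries of this contrast gave 78 and 56. The 43 calls were 1.41% of the peaks tested in the set, beside 0.923% of all 54037 tested H3K27ac peaks (0.692% higher and 0.231% lower). This difference in share was not tested. The other 550 peaks had too few reads to be tested. The median log2 fold change of those tested was 0.0087, beside -0.0040 over all tested peaks. Relative to the DMSO mean, the median of the set was 0.016 and -0.013 in the 500 nM libraries and 0.011 and -0.011 in the DMSO libraries (log2 of CPM plus 0.5), so the groups overlapped and the set as a whole did not shift beyond its replicates.

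The calls depended on depth and on single libraries. The 900 longest peaks, with a median of 121 reads per peak and library, held 34 of the 43 calls, and the 909 shortest, with a median of 8, held 0. DESeq2 called 9 peaks, all higher, and gave some peaks no adjusted p. Leaving out 1 library gave 19 calls without DMSO replicate 1, 10 without DMSO replicate 2, 120 without 150 nM replicate 1, 116 without 150 nM replicate 2, 18 without 500 nM replicate 1 and 10 without 500 nM replicate 2.

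**Figure D3:**
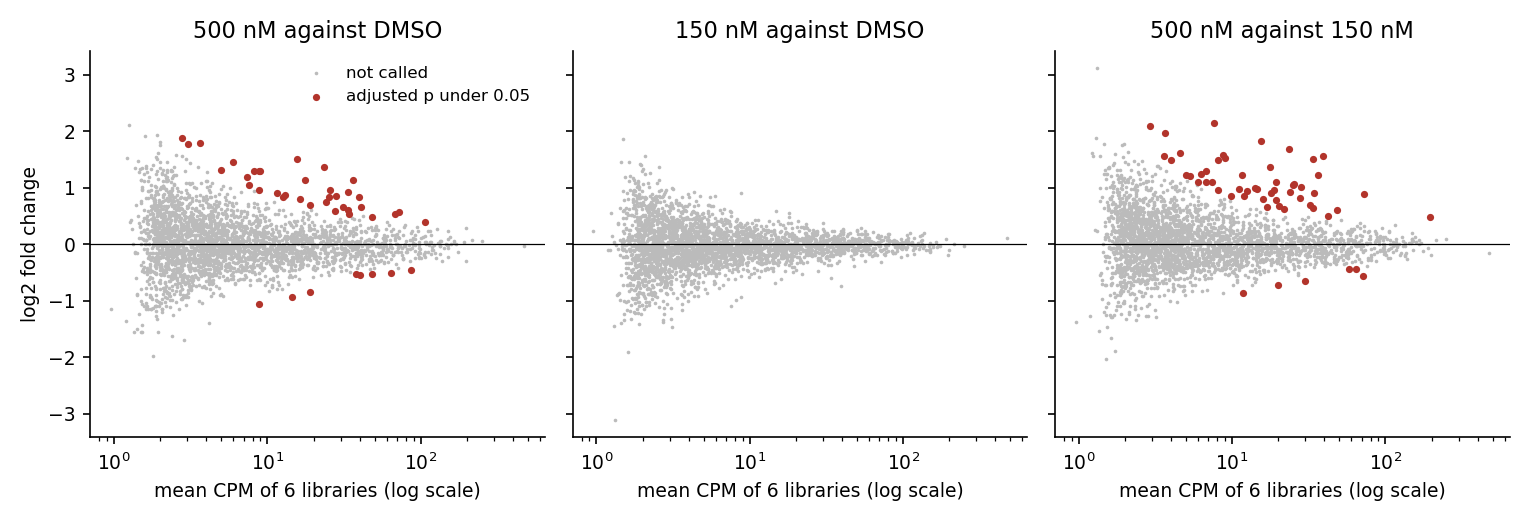
Log2 fold change (y axis) against mean CPM over 6 libraries (x axis, log scale) of the 3053 tested peaks in the 3 comparisons, one point per peak. Red points passed an adjusted p under 0.05: 43 at 500 nM against DMSO, 0 at 150 nM against DMSO and 56 at 500 nM against 150 nM.

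The clearest rise was at the far end of GPR179, which encodes an orphan G protein-coupled receptor known from retinal bipolar cells. The peak (chr17:38324744-38326732) lies within the gene, 173 bp from its end and 24275 bp from H3K4me3. Its H3K27ac was 16.6 and 15.4 CPM in DMSO, 13.0 and 12.8 CPM at 150 nM, and 40.9 and 42.0 CPM at 500 nM. Both 500 nM libraries stood above the other 4, and the log2 fold change against DMSO was 1.37 ± 0.16 (SE, adjusted p = 5.53e-08). A second peak, over the start of GPR179 and singled out after its values were seen, read 14.9 and 14.8 CPM in DMSO and 21.3 and 22.9 CPM at 500 nM. This gave 0.57 ± 0.18 with an adjusted p of 0.131, which is not a call.

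The peak near LOC124902349 (chr9:130446965-130449186) lies inside ASS1, the gene of argininosuccinate synthase in arginine synthesis, 1150 bp from H3K4me3. It read 10.8 and 9.23 CPM in DMSO, 7.65 and 8.29 CPM at 150 nM, and 24.5 and 32.7 CPM at 500 nM. The 500 nM libraries again stood apart, with a log2 fold change of 1.514 ± 0.195 (adjusted p = 8.03e-07). The peaks at GPR179 and LOC124902349 were called under all 8 other settings of the fit and without each library in turn. Of the 10 largest rises and the 8 falls in this comparison they were the ones that DESeq2 also called, with adjusted p of 8.37e-06 and 0.000326. DESeq2 gave no adjusted p to the rises at CCDC154, KLHDC7B, CCL3-AS1, ADGRG3 and the start side of LINC01342, so it neither kept nor lost those.

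KLHDC7B and CCDC154 were the named rises whose peak held a start. At KLHDC7B, a kelch-domain protein gene, the peak (chr22:50545861-50546444) was 595 bp from H3K4me3. It read 2.07 and 2.01 CPM in DMSO, 2.12 and 1.508 CPM at 150 nM, and 6.41 and 7.82 CPM at 500 nM, a rise of 1.79 ± 0.38 (adjusted p = 0.00586). CCDC154, a coiled-coil protein gene, shares its peak (chr16:1444520-1445047) with CLCN7, a chloride transporter of lysosomes. Its libraries read 0.920 and 1.60 CPM, 2.34 and 2.07 CPM, and 3.39 and 6.26 CPM in order of dose, which gave 1.89 ± 0.49 (adjusted p = 0.0420). The levels of both peaks were low, and the 500 nM replicates of CCDC154 differed from each other more than the DMSO and 150 nM groups did. Without DMSO replicate 1, DMSO replicate 2 or 500 nM replicate 2 neither peak was called (edgeR adjusted p = 0.051 to 0.195 for KLHDC7B and 0.137 to 0.720 for CCDC154).

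The peaks at CCL3-AS1 and ADGRG3 rose from 4.41 CPM or less in DMSO. CCL3-AS1, antisense to the chemokine gene CCL3, had 2.30 and 4.01 CPM in DMSO, 7.44 and 4.34 CPM at 150 nM, and 9.04 and 8.60 CPM at 500 nM. The rise was 1.45 ± 0.32 (adjusted p = 0.00891), and the 150 nM libraries lay between the other groups. Sequencing reads of chromatin have no gene strand, so CCL3 and its antisense gene cannot be told apart. Near ADGRG3, an adhesion G protein-coupled receptor of granulocytes, the peak read 2.07 and 4.41 CPM in DMSO, 3.82 and 3.20 CPM at 150 nM, and 8.48 and 8.02 CPM at 500 nM, a rise of 1.31 ± 0.33 (adjusted p = 0.0282). CCL3-AS1 lost the call without DMSO replicate 1 or 500 nM replicate 1 (edgeR adjusted p = 0.263 and 0.0631), and ADGRG3 without DMSO replicate 1, 500 nM replicate 1 or 500 nM replicate 2 (0.504, 0.178 and 0.135).

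Far-end peaks of FLCN and GTF3C5 were among the 10 largest rises. The peak at the far end of FLCN (chr17:17212877-17214160), the gene of the tumour suppressor folliculin, which acts in nutrient sensing at the lysosome, read 6.44 and 4.81 CPM in DMSO, 4.25 and 5.47 CPM at 150 nM, and 11.7 and 16.0 CPM at 500 nM. The rise was 1.31 ± 0.26 (adjusted p = 0.00193). At the far end of GTF3C5 (chr9:133058189-133059068), a subunit of the RNA polymerase III factor TFIIIC, the libraries read 5.98 and 6.42 CPM, 4.89 and 5.65 CPM, and 14.7 and 16.0 CPM. This was a rise of 1.30 ± 0.24 (adjusted p = 0.000595). The 150 nM libraries of both stood within or below the DMSO range. FLCN lost the call without DMSO replicate 2 or 500 nM replicate 2 (edgeR adjusted p = 0.177 and 0.198), and GTF3C5 was called without each library in turn.

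Further far-end rises, singled out after their values were seen, were smaller. ANKFY1, an endosomal effector of the small GTPase RAB5, had 20.2 and 20.7 CPM in DMSO and 34.3 and 39.3 CPM at 500 nM (0.85 ± 0.16, adjusted p = 0.000828). NPRL3, part of the GATOR1 complex that restrains mTORC1, had 10.8 and 13.6 CPM in DMSO and 20.3 and 22.5 CPM at 500 nM (0.80 ± 0.19, adjusted p = 0.0228). GATAD2B, a NuRD repressor subunit, RBMX2, an RNA-binding protein, and FBXO42, an F-box ubiquitin ligase subunit, rose by 0.59, 0.65 and 0.54 on the log2 scale. ANKFY1 lost the call without DMSO replicate 2 or 500 nM replicate 2 (edgeR adjusted p = 0.051 and 0.126), and the other 4 lost it without any 1 of the DMSO and 500 nM libraries (0.0846 to 0.604). In all, 17 of the 43 calls were near a far end only, 11 were near a start and 15 had no known strand. Of the peaks tested in the first 2 classes, 1.69% and 1.73% were called, and the difference between these shares was not tested.

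LAPTM5, a lysosomal membrane protein that lowers antigen receptors on lymphocytes, had a run of peaks toward its far end. All were singled out after their values were seen. At the far end itself (chr1:30732375-30733130) the libraries read 8.97 and 9.83 CPM in DMSO, 11.9 and 11.7 CPM at 150 nM, and 14.3 and 19.6 CPM at 500 nM, a rise of 0.84 ± 0.21 (adjusted p = 0.0348). The next peak (chr1:30733405-30736277) read 19.8 and 19.7 CPM, 17.4 and 19.2 CPM, and 36.9 and 39.7 CPM, a rise of 0.96 ± 0.15 (adjusted p = 8.43e-05). Both 500 nM libraries exceeded the other 4 at each. Then came 3 peaks within 1000 bp of the microRNA gene MIR4420, inside LAPTM5, whose log2 fold changes against DMSO were 0.69, 0.10 and 0.30 and were not called. The first of these (chr1:30737866-30738519) was called at 500 nM against 150 nM, with 1.11 ± 0.29 (adjusted p = 0.0345). The far-end peak lost the call without DMSO replicate 1, DMSO replicate 2 or 500 nM replicate 2 (edgeR adjusted p = 0.254 to 0.687), the next peak was called without each library in turn, and the MIR4420 peak lost it without 150 nM replicate 2, 500 nM replicate 1 or 500 nM replicate 2 (0.120 to 0.378).

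Rises at long noncoding RNA genes included LINC01342 and LOC105370775. LINC01342 had a peak at its start side (1.38 and 1.60 CPM in DMSO, 1.49 and 3.20 CPM at 150 nM, 4.33 and 6.06 CPM at 500 nM) that rose by 1.77 ± 0.46 (adjusted p = 0.0397). Its far-end peak, singled out after its values were seen, went from 22.8 and 22.7 CPM in DMSO to 37.9 and 44.8 CPM at 500 nM (0.86 ± 0.15, adjusted p = 0.000330). At LOC105370775 the libraries read 5.06 and 4.81 CPM in DMSO, 11.7 and 6.97 CPM at 150 nM, and 12.8 and 11.3 CPM at 500 nM. The 150 nM and 500 nM groups overlapped there, and the rise against DMSO was 1.29 ± 0.27 (adjusted p = 0.00436). It lost the call without DMSO replicate 2 or 500 nM replicate 1 (edgeR adjusted p = 0.115 and 0.0725). The start-side peak of LINC01342 lost it without any 1 of the DMSO and 500 nM libraries (0.0621 to 0.531), and its far-end peak without 500 nM replicate 2 (0.105).

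**Figure D4:**
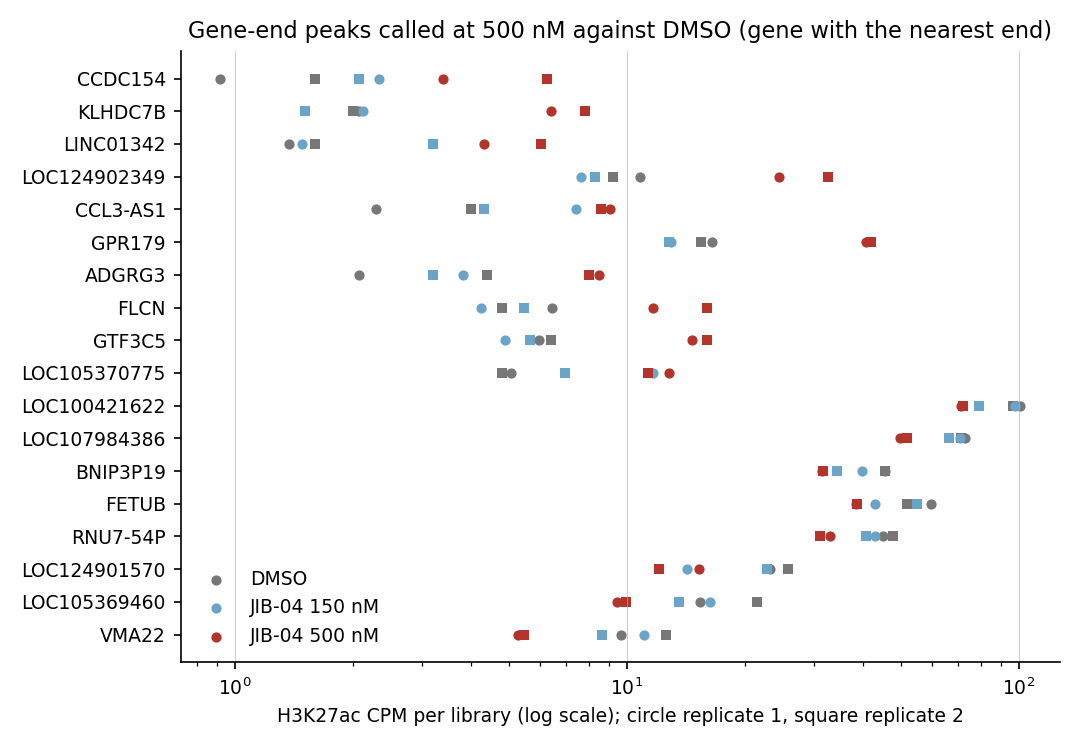
H3K27ac level (x axis, CPM, log scale) of the 10 largest rises and all 8 falls at 500 nM against DMSO (rows, by nearest gene), one point per library, 2 per treatment. These rises start from 0.920 to 16.6 CPM in DMSO, and the falls from 9.66 to 100.7 CPM.

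The 8 falls had log2 fold changes between -0.46 and -1.06 and began from 9.66 to 100.7 CPM in DMSO. At VMA22, an assembly factor of the vacuolar proton pump, a peak just past the far end (chr2:130337269-130337926) read 9.66 and 12.6 CPM in DMSO, 11.05 and 8.67 CPM at 150 nM, and 5.27 and 5.48 CPM at 500 nM. It fell by 1.06 on the log2 scale (SE 0.26, adjusted p = 0.0244). The peaks at the lncRNA genes LOC105369460 and LOC124901570, the latter inside CHLSN, fell by 0.94 and 0.84. The far end of FETUB, which encodes the liver protein fetuin-B, read 59.8 and 51.9 CPM in DMSO, 43.1 and 55.0 CPM at 150 nM, and 38.4 and 38.7 CPM at 500 nM, a fall of 0.53 (adjusted p = 0.0271).

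LOC107984386, whose CpG-poor start is printed above, shares its peak (chr11:111444790-111446604) with BTG4, a deadenylase cofactor of oocytes. The libraries read 73.1 and 71.4 CPM in DMSO, 71.0 and 66.5 CPM at 150 nM, and 49.9 and 51.8 CPM at 500 nM. It fell by 0.51 (SE 0.12, adjusted p = 0.0119) and also fell against 150 nM, by 0.43 (adjusted p = 0.0374), as the 1 peak called lower in both comparisons. The remaining falls were 0.54 at RNU7-54P, 0.53 at BNIP3P19 and 0.46 at LOC100421622, which are pseudogenes. All 8 falls lost the call without DMSO replicate 2 and without 500 nM replicate 2 (edgeR adjusted p = 0.106 to 0.536). All but LOC124901570 lost it without 500 nM replicate 1 (0.175 to 0.405), and all but VMA22, LOC105369460 and LOC124901570 without DMSO replicate 1 (0.171 to 0.454). The fall of LOC107984386 against 150 nM lost it without any 1 of the DMSO and 500 nM libraries (0.0629 to 0.534). In all 8 falls the 150 nM mean was below the DMSO mean. In the 35 rises it was above the DMSO mean in 14 and below it in 21. For comparison, 45.8% of the tested peaks of the set had a log2 fold change above 0 at 150 nM against DMSO. The share was 48.3% over all tested peaks. The calls were made against the same DMSO libraries, so these counts are not independent of them.

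At 150 nM no peak of the set was called against DMSO. Of all tested peaks edgeR called 0.00185%, and DESeq2 called 0 of the set. An unadjusted edgeR p under 0.05 was given to 112 peaks of the set (3.67%) and to 2128 of all tested peaks (3.94%). The median log2 fold change was -0.024, beside -0.0097 over all tested peaks. The library medians relative to DMSO were -0.0049 and -0.050, so the lower value was that of 150 nM replicate 2. The median was -0.010 without that library and -0.052 without 150 nM replicate 1. Without 150 nM replicate 1 there were 24 calls, all lower, and without replicate 2 there was 1. The lowest p below 0 was at SNORA80D, a small nucleolar RNA gene inside AIMP2, which encodes a scaffold of the tRNA synthetase complex. It read 34.7 and 35.3 CPM in DMSO, 20.0 and 22.1 CPM at 150 nM, and 59.9 and 64.7 CPM at 500 nM. The 3 groups did not overlap, and the 150 nM value was -0.73 ± 0.15 (unadjusted p = 9.77e-06, adjusted p = 0.264). The next lowest were LOC124903739 at -0.59 and the transfer RNA gene TRS-GCT4-2 at -0.98, and above 0 they were LOC105370775 at 0.90, LINC01381 at 0.56 and GHRL, the ghrelin gene, at 0.59. None passed the test.

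The 500 nM libraries were also compared with those of 150 nM. They are the same 500 nM libraries as above, so the comparisons are not independent. Here 56 peaks were called, 50 higher and 6 lower, which is 1.83% of those tested beside 1.27% of all tested peaks (1.09% higher and 0.185% lower). Leaving out 1 library gave 124 calls without 150 nM replicate 1, 31 without 500 nM replicate 1 and 26 without 500 nM replicate 2, and DESeq2 called 21. There were 23 peaks higher in both comparisons. Of the 35 rises against DMSO, 34 had both 500 nM libraries above all 4 others. The calls themselves favour this for the DMSO libraries, and no share over all tested peaks was taken for it. Both 500 nM libraries stood above both DMSO libraries in 22.9% of the tested peaks of the set and 22.4% of all tested peaks. The median log2 fold change was 0.023, beside 0.0050 over all tested peaks.

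SNORA80D and LOC124903739 were singled out in this comparison after their values were seen. SNORA80D rose by 1.56 against 150 nM (adjusted p = 8.29e-12) and by 0.83 against DMSO (adjusted p = 4.46e-05). LOC124903739, inside GSE1, had 24.8 and 31.9 CPM in DMSO, 18.9 and 18.8 CPM at 150 nM, and 53.7 and 54.4 CPM at 500 nM, which is 1.52 against 150 nM and 0.92 against DMSO. Both thus read lower at 150 nM and higher at 500 nM than in DMSO, of which the first difference did not pass. The largest rise was at LOC105376224, with 2.12 and 3.77 CPM at 150 nM and 12.4 and 14.3 CPM at 500 nM (2.15, adjusted p = 6.07e-07). BEST1, a chloride channel gene, had 0.425 and 2.07 CPM at 150 nM and 5.46 and 5.67 CPM at 500 nM (2.09, adjusted p = 0.00832). The next 3, KLHDC7B, LOC124902349 and GPR179, were 1.97, 1.83 and 1.68 higher. BEST1 lost the call without 150 nM replicate 1, 500 nM replicate 1 or 500 nM replicate 2 (edgeR adjusted p = 0.0505 to 0.0880) and KLHDC7B without 500 nM replicate 2 (0.0624). SNORA80D, LOC124903739, LOC105376224, LOC124902349 and GPR179 were called without each library in turn.

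The 2 largest falls against 150 nM were at peaks with a start inside. LOC105376314 read 13.8 and 15.3 CPM at 150 nM and 8.10 and 7.82 CPM at 500 nM, a fall of 0.87 (adjusted p = 0.0298). LMO3, a LIM-domain transcription cofactor with H3K4me3 320 bp away, fell by 0.72, from 26.99 and 20.5 CPM to 14.1 and 14.7 CPM. CHI3L2, which encodes a chitinase-like protein, fell by 0.57 from 82.0 and 83.9 CPM to 61.6 and 50.3 CPM (adjusted p = 0.00179). Its DMSO libraries read 71.7 and 78.2 CPM, and the difference from DMSO of -0.42 had an adjusted p of 0.0603. LOC105371574 and LOC100506446 fell by 0.65 and 0.44. All 5 falls lost the call without 500 nM replicate 2 (edgeR adjusted p = 0.117 to 0.446), and all but CHI3L2 without 500 nM replicate 1 (0.225 to 0.603). LOC105376314, LOC105371574 and LOC100506446 lost it without 150 nM replicate 2 (0.0864 to 0.104), LMO3 without 150 nM replicate 1 (0.137), and LOC100506446 without either DMSO replicate (0.0628 and 0.0726).

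H3K4me3 elsewhere on the same gene gave a measure that the choice of peaks did not use at that place. For 1254 tested peaks the nearest gene had a tested H3K4me3 peak at one of its ends, and the strongest was taken. The pairs covered 1050 genes and 1016 H3K4me3 peaks, and several H3K27ac peaks could share 1 H3K4me3 peak. Of all 20402 tested H3K4me3 peaks, 39.4% were called at 500 nM against DMSO (20.7% higher and 18.7% lower). Across pairs, the log2 fold changes of the marks had a Spearman coefficient of 0.14, as a description. The median H3K27ac log2 fold change was 0.11 in the 146 pairs with higher H3K4me3 and -0.037 in the 393 with lower H3K4me3. Against 150 nM, where 39.2% of all tested H3K4me3 peaks were called, 19 called peaks of the set had a partner, with H3K4me3 higher for 4 and lower for 6.

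Of the 43 called peaks, 13 had such a partner, of which 5 had higher and 2 lower H3K4me3, with LINC01342 and LAPTM5 counted 2 times each. At LAPTM5 the H3K4me3 peak at the start (chr1:30753348-30758315) read 72.8 and 71.0 CPM in DMSO, 74.5 and 74.1 CPM at 150 nM, and 134 and 130 CPM at 500 nM. H3K4me3 there rose by 0.87 ± 0.04 (SE, adjusted p = 3.69e-25), beside 0.84 and 0.96 for H3K27ac at its far end. At 150 nM the log2 fold change of H3K4me3 was 0.05 and those of the 2 H3K27ac peaks were 0.32 and -0.10, none of them called. H3K4me3 at the start of LINC01342 rose by 1.56, from 0.898 and 0.982 CPM to 2.21 and 3.47 CPM. At LOC105370775 it rose by 0.78, from 2.45 and 1.87 CPM to 4.76 and 2.55 CPM.

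FLCN, GTF3C5, ANKFY1, GATAD2B, NPRL3 and RBMX2 had no call of H3K4me3 at the start. The start of FLCN read 108 and 108 CPM in DMSO and 107 and 108 CPM at 500 nM (-0.01 ± 0.04, adjusted p = 0.878), while H3K27ac at its far end rose by 1.31. The starts of GTF3C5, ANKFY1, GATAD2B, NPRL3 and RBMX2 had log2 fold changes of -0.06, -0.09, -0.05, -0.15 (adjusted p = 0.0978) and 0.00. Against 150 nM the start of GTF3C5 was called lower, by -0.10 (adjusted p = 0.0281). FBXO42 had lower H3K4me3 at its start (-0.10, adjusted p = 0.0446) and higher H3K27ac at its far end. VMA22 had lower values of both, with H3K4me3 at -0.13 (adjusted p = 0.00232). ICA1, an islet autoantigen gene singled out after its values were seen, had H3K4me3 higher by 1.60 at its start (adjusted p = 7.52e-10). Its far-end H3K27ac rose against 150 nM by 0.51 (adjusted p = 0.0406), and the same value of 0.51 against DMSO had an adjusted p of 0.0524. The call against 150 nM was lost without DMSO replicate 2, 150 nM replicate 2, 500 nM replicate 1 or 500 nM replicate 2 (edgeR adjusted p = 0.0599 to 0.603), and the value was 0.31 without 150 nM replicate 2.

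**Figure D5:**
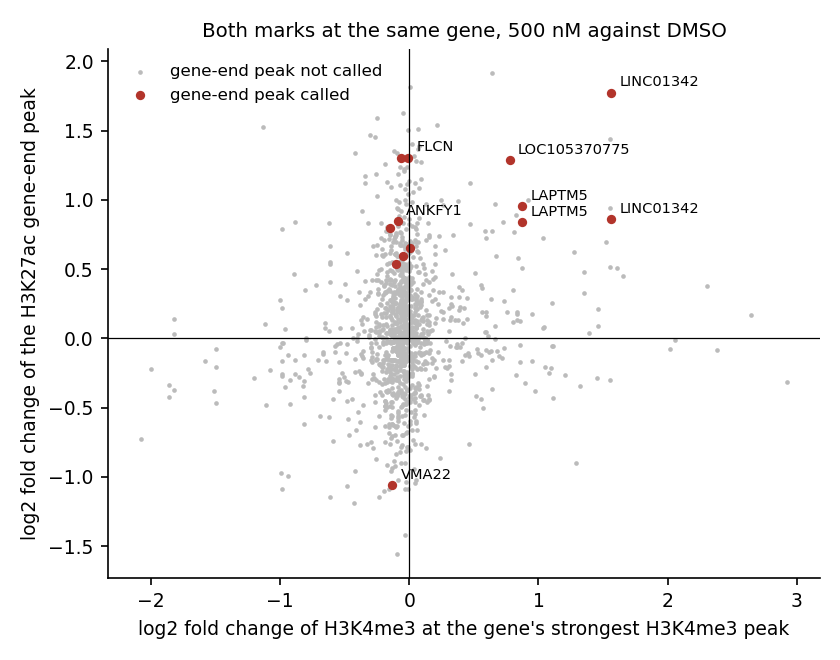
Log2 fold change at 500 nM against DMSO of each gene-end H3K27ac peak (y axis) against that of the strongest H3K4me3 peak at an end of the same gene (x axis), one point per pair, 1254 in all. LAPTM5 and LINC01342 lie high on both axes, while FLCN and ANKFY1 lie near 0 for H3K4me3.

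Genes of germinal centre B cells and of stress pathways were represented, and none of their peaks was called in any of the 3 comparisons. The shares called at 500 nM against DMSO were 1.41% of the tested set and 0.923% of all tested peaks. Against 150 nM they were 1.83% and 1.27%, and at 150 nM against DMSO no peak of the set was called. With at most 9 tested peaks per list, no call is near these shares. Among 25 germinal centre transcription factors and cofactors, 4 had a peak of the set, all at the far end, with a median log2 fold change of 0.04 over 6 peaks at 500 nM against DMSO. NFATC1, the calcium-activated factor downstream of the antigen receptor, read 86.7 and 88.4 CPM in DMSO and 96.3 and 99.1 CPM at 500 nM (0.16, adjusted p = 0.598). EBF1 and TCF3, factors of B-cell identity, had peaks from -0.14 to 1.45, with adjusted p from 0.276 to 0.964. At the far end of FCRL5, an inhibitory receptor of B cells, the libraries read 130 and 128 CPM in DMSO, 143 and 146 CPM at 150 nM, and 126 and 127 CPM at 500 nM.

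B2M, the light chain of class I molecules, CCR7, a homing receptor, and BCL2L11, which encodes the death inducer BIM, had log2 fold changes of -0.01, -0.17 and, for its pair of peaks, 0.01 and 0.08 at 500 nM against DMSO. Of 21 apoptosis and p53 genes, 6 had peaks of the set, 9 peaks with a median of 0.01. HMOX1, the heme oxygenase induced by oxidative stress, read 25.5 and 31.7 CPM in DMSO and 20.2 and 20.5 CPM at 500 nM (-0.50, adjusted p = 0.152). PPHLN1, a subunit of the HUSH silencing complex, had 3 far-end peaks at -0.58, -0.72 and -0.16, with adjusted p of 0.155 to 0.933. BATF3 stood for the AP-1 list with 2.76 and 2.61 CPM in DMSO and 4.71 and 6.06 CPM at 500 nM (1.00, adjusted p = 0.262). Of 22 listed genes of the Jumonji family, of whose demethylases the compound blocks several, none had a peak of the set, and 19 had H3K4me3 at an end. The interferon-stimulated list had 4 genes with a peak, 3 of them tested, and a median of -0.28, and the B-cell receptor list had 3 genes and a median of -0.03. The medians of the other lists were -0.19 for migration (5 genes tested), -0.38 for the plasma cell programme (1 gene), -0.05 for antigen presentation (4 genes), -0.32 for NF-kB (2 genes), -0.37 for H3K9 methylation (2 genes), 0.73 for histone acetylation (2 genes) and -0.13 for iron, hypoxia and stress (3 genes tested). These medians rest on 1 to 9 tested peaks each, beside -0.0040 over all tested peaks.

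MicroRNA genes within reach numbered 91, of which 84 were in the RefSeq sequence table. MIR4420 was the one with a called peak. MIR23A, MIR27A and MIR24-2 share a single peak (chr19:13835689-13837421) 1486 bp from H3K4me3 and are shown because they are a known cluster in blood cells. Mature sequences follow with the seed, bases 2 to 8, in capitals, from RefSeq for GRCh38.p14.
hsa-miR-4420: gUCACUGAugucuguagcugag
hsa-miR-23a-3p: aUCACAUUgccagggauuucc
hsa-miR-27a-3p: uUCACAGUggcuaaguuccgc
hsa-miR-24-3p: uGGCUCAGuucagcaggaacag

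The 4 seeds are all different. The cluster's peak read 25.1 and 29.7 CPM in DMSO, 26.99 and 33.9 CPM at 150 nM, and 28.6 and 30.3 CPM at 500 nM. The groups overlapped, with a log2 fold change of 0.10 ± 0.15 at 500 nM (adjusted p = 0.860).

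The B-cell label was set against cell type markers at gene ends. Of 15 B-cell marker genes, all 15 had H3K4me3 and 13 had H3K27ac at an end. The counts were 5 and 7 of 15 for T cells, 3 and 2 of 15 for myeloid cells, 2 and 2 of 8 for NK cells and for erythroid cells, and 5 and 1 of 10 for fibroblast or epithelial cells. Peaks without H3K4me3 did lie at some T-cell genes: the far end of CD2 had 22.6 CPM per kb, 99480 bp from H3K4me3. The peak over the constant region gene TRAC, singled out after its values were seen, rose at 500 nM, from 54.9 and 59.0 CPM to 80.1 and 86.4 CPM (0.55 ± 0.11, adjusted p = 0.00390). It lost the call without DMSO replicate 1, DMSO replicate 2 or 500 nM replicate 2 (edgeR adjusted p = 0.0922 to 0.295). The summed level of the T-cell marker peaks of the set was 84.4 and 94.7 CPM in DMSO, 96.9 and 99.9 CPM at 150 nM, and 81.8 and 73.9 CPM at 500 nM. Most of this sum was the CD2 peak, with 73.1 and 82.8 CPM in DMSO, 82.9 and 87.6 CPM at 150 nM, and 68.8 and 62.0 CPM at 500 nM. None of the 3 tested T-cell marker peaks was called.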

How the data were processed

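The authors deposited raw counts per consensus peak in 1 table per mark. Per the file headers, counting used featureCounts 2.0.1 without strand, over several peaks where they overlap, with a read fraction of at least 0.2. The headers also set a paired option, although the labels describe single-end reads of 50 bp, and what 1 count stands for is therefore not settled. The submitters' processing notes name GRCh38, Trim Galore 0.6.7, BWA 0.7.17-r1188, Picard 2.27.4, MACS2 2.2.7.1, deepTools 3.5.1 and edgeR 3.42.4, without an order. How the consensus was made is not given in the sources used here. Of 30 libraries, input, H3K9me2 and H3K9me3 were not analysed here.

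Coordinates are GRCh38, 1-based. Gene ends and types are from RefSeq (GRCh38.p14), and strand is from its promoter table, which leaves 1664 peaks unclassified. Exons and introns were not analysed here. Each mark was tested whole with edgeR 4.0.16 in R 4.3.3 (filterByExpr, TMM, quasi-likelihood test over 6 libraries, two-sided, Benjamini-Hochberg adjustment). This scaling cannot show a change shared by all peaks. The fit was tested on simulated data with the dispersion of the real peaks, where it recovered size and sign and missed a large share of the changed peaks, mostly those at low counts. Duplicate reads without identifiers mean that counting noise is a lower limit.

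Members and lists were chosen with earlier results of these data known. Peaks are named by nearest gene: up to 10 rises and falls at 500 nM against DMSO and 5 in other comparisons, called and with groups apart, or the 3 of lowest p per direction where none was called. The 10 highest in CPM per kb, the 3 longest, the peaks of 3 genes with most (ties taken by name), and up to 4 genes per list were named too. Peaks named outside this rule are said to be singled out. The 13 lists were germinal centre factors, B-cell receptor, migration, plasma cell, antigen presentation, NF-kB, AP-1, p53 and apoptosis, interferon, Jumonji, H3K9 methylation, acetylation, and iron, hypoxia and stress genes. Alternatives covered scaling, filters, design, DESeq2 1.42.0, thresholds, membership limits and each library left out.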

Additional observations from a re-analysis of the deposited data

How the results depend on the processing

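Of the 43 peaks called at 500 nM against DMSO, the count became 25 with a mean count of at least 50, 80 (51 higher, 29 lower) with the replicate block, 83 with the library split as a term, 134 (78 higher, 56 lower) with only the 4 libraries of the contrast, 9 with DESeq2, 18 with protein-coding genes only, 19 at an adjusted p under 0.01 and 15 with the log2 fold change at 1 or beyond, and ran from 10 to 120 when 1 library was left out. The 56 calls against 150 nM became 33 with a mean count of at least 50, 21 with DESeq2, 30 with protein-coding genes only, 36 at an adjusted p under 0.01 and 27 with the log2 fold change at 1 or beyond, and ran from 26 to 124 without 1 library. The 0 calls at 150 nM against DMSO became 1 with the replicate block and 1 with the library split, and ran from 0 to 24 without 1 library. The cause of these moves was not tested, other than fewer peaks or samples where the setting itself removes them. Where a library was left out, the lone library of its group was assumed to vary like the others.

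The median log2 fold change moved beyond the replicate SD of 0.024 in few settings. At 500 nM against DMSO it was -0.043 with a mean count of at least 50 and 0.041 with protein-coding genes only, and from -0.014 to 0.040 without 1 library. Against 150 nM these were -0.026, 0.050, and -0.011 to 0.073. At 150 nM against DMSO it ran from -0.052 (without 150 nM replicate 1) to -0.0021 (without DMSO replicate 1). Of 44 named changes, 28 by the rule and 16 singled out, none reversed in 597 values under alternatives of the fit, and 145 of these values lost the call. The changes were chosen as calls in the same libraries, which made a reversal unlikely from the start.

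Whether the replicate numbers pair the libraries was not settled. Over 3053 peaks, replicate differences of the 3 pairs of groups correlated at 0.070, -0.0058 and 0.029. Counting noise at the low counts of most peaks keeps such coefficients small, so they cannot exclude a pairing. The value of 0.070 was that of DMSO and 150 nM, whose replicate 2 libraries both stood low on the contigs described above. The replicate block raised the calls at 500 nM against DMSO from 43 to 80.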
